A study of Mus musculus with 6 samples.

Results

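The genes described here carry glucose into lactate. They are 30 genes of glucose uptake, glycolysis, its regulation by fructose 2,6-bisphosphate, lactate formation and lactate export, chosen by name, and all 30 were found among 55413 records with a unique gene ID. The cells were C2C12, a line of mouse myoblasts that fuse into myotubes when serum is lowered. There were 3 WT libraries and 3 titled FHL3-KO (knockout of the LIM-domain gene Fhl3, called KO-labelled below), with RNA taken on day 4 after a change to low horse serum, the same medium for both genotypes. The labels name no clone and no separate cultures, so a clone's own traits cannot be told apart from the genotype, and the p-values rest on the spread among these libraries alone, which may be technical. The title of the series names glycolytic metabolism and fast fibres, and the comparison asks how these genes differ between the genotypes.

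Glycolysis splits glucose into pyruvate, which lactate dehydrogenase can reduce to lactate for export by monocarboxylate transporters. Many of its steps are served by several genes: a widely expressed isoenzyme is joined, or replaced, in muscle by one that is used for rapid ATP supply, such as the muscle phosphofructokinase Pfkm, the muscle phosphoglycerate mutase Pgam2 and the muscle enolase Eno3. Glucose enters adult muscle fibres largely through the insulin-responsive transporter GLUT4 (Slc2a4), while GLUT1 (Slc2a1) serves basal uptake in most cultured cells.

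Fhl3 RNA itself was not lower in the KO-labelled libraries. It stood at 27.8, 30.04 and 33.7 FPKM (fragments per kilobase of gene, scaled for library size) in WT replicates 1 to 3 against 57.2, 53.5 and 58.9 FPKM in the KO-labelled libraries, all higher than WT (log2 difference 0.87, limma adjusted p = 0.000547). The RNA level thus shows no loss of Fhl3, but a gene-level value shows neither the allele nor the protein. Whether the gene was disrupted cannot be told here, and FHL3-KO is kept only as a label. The FPKM of all records summed to 424987 (WT replicate 1) to 494176 (KO-labelled replicate 3); read depth is unknown. Myotube markers summed to 5431 to 6883 FPKM in WT and to 12955 to 14040 FPKM in the KO-labelled libraries, where 6 of 8 rose. Most of that sum was Acta1 (means of 1927 FPKM in WT and 5461 FPKM in the KO-labelled libraries) and Mylpf (3105 and 5711 FPKM). Ttn and Casq1 were not called. The fibroblast markers summed to 442 to 505 FPKM in WT against 156 to 174 FPKM, with 3 of 6 tested genes falling and 1 rising. Of 7 tested markers of proliferating myoblasts 2 rose and 3 fell (summed 149 to 173 against 137 to 147 FPKM). Over all tested genes 19.7% rose and 21.2% fell (limma adjusted p at most 0.05), the shares beside which these marker counts stand. In bulk RNA, fewer cells of a type and less RNA per cell cannot be told apart, and the part of cell makeup in the results below was not tested. Hepatocyte markers summed to 127 FPKM in WT replicate 1 and to at most 0.036 FPKM elsewhere, and calls of the pathway genes and of the lists below that were lost without this library are named beside them. Fhl3 and every called marker gene kept their call without it. Erythroid markers summed to 9.59 to 12.4 FPKM in WT against 1.07 to 1.72 FPKM, with both tested genes falling, and the macrophage and adipocyte markers to at most 2.41 FPKM in any library. Of these erythroid genes Hba-a2 was tested only because it averaged 1 FPKM or more in WT, where it was higher (1.72 against 0.035 FPKM).

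Of the 30 genes 29 averaged 1 FPKM or more in some genotype and were tested with limma on log2(FPKM + 1) beside all 12528 genes that passed. At an adjusted p of 0.05, 7 rose (24.1%, against 19.7% of all tested genes) and 5 fell (17.2%, against 21.2%), so neither share stood far from that of the whole table. Without WT replicate 1 the numbers were 6 and 4. Every KO-labelled library lay above every WT library for 8 genes (27.6%) and below for 9 (31%), against 26.9% in each direction for all tested genes. The median log2 difference was 0.04, beside -0.0051 over all genes tested, and its sign was not stable: it was -0.02 without WT replicate 1, -0.01 without KO-labelled replicate 3, -0.03 with quantile normalization, -0.07 with sums made equal and -0.08 after removal of the length and GC trend, and 0.11 without WT replicate 3. The genes that rose were Slc2a4, Gpi1, Pfkm, Tpi1, Pgk1, Eno3 and Ldha, and those that fell were Pfkp, Pfkfb4, Ldhb, Slc16a1 and Slc16a3. Slc2a4, Slc16a3 and Pfkfb1 passed the filter through 1 genotype only, the one in which they were higher, so these counts are a description of the tested genes and not of the whole pathway.

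**Figure D1:**
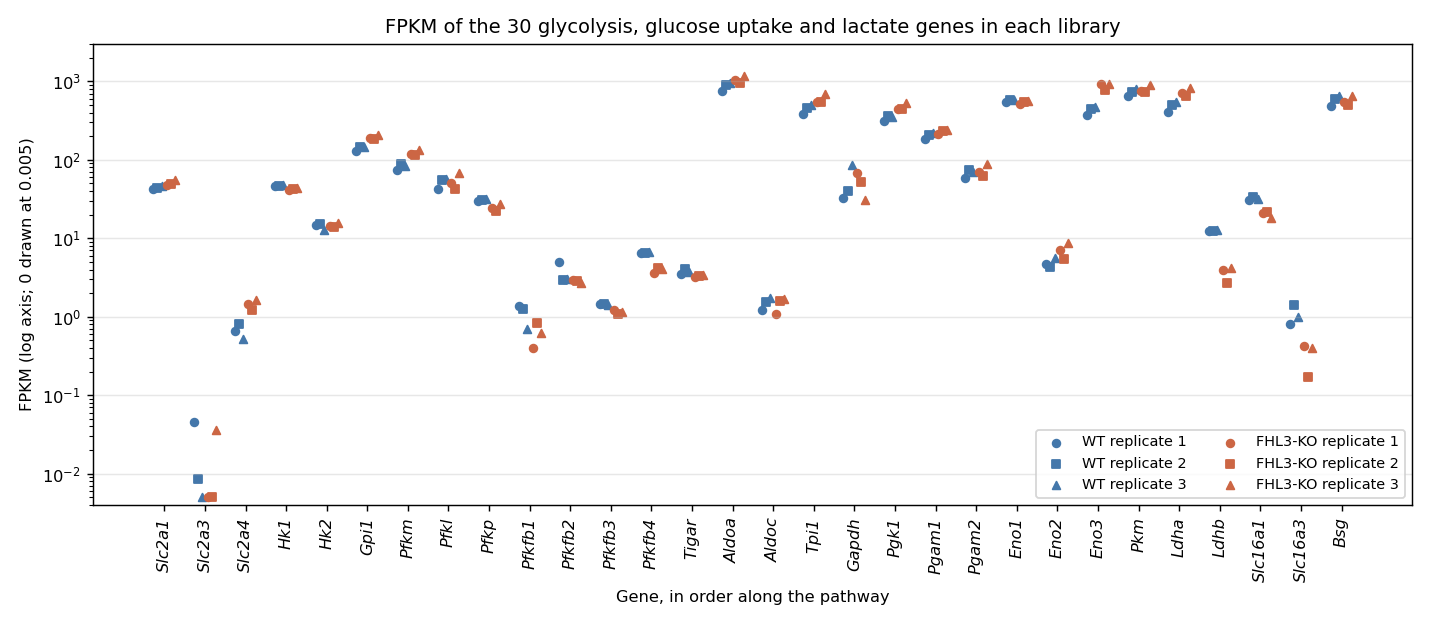
FPKM of the 30 genes in each library on a log axis, in order along the pathway, with WT in blue and FHL3-KO as labelled in orange and 1 marker shape per replicate number. The genes span from Slc2a3, listed at 0 to 0.045 FPKM, to Aldoa, at 756 to 1173 FPKM, and among tested genes the genotypes lie farthest apart at Ldhb, Slc16a3, Eno3 and Slc2a4.

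Among Slc2a1, Slc2a3 and Slc2a4, the glucose transporters chosen here, Slc2a1 RNA was by far the most abundant in both genotypes, and Slc2a4 rose from a low level. Slc2a4 stood at 0.65, 0.80 and 0.52 FPKM in WT replicates 1 to 3 against 1.45, 1.21 and 1.63 FPKM in the KO-labelled libraries. Every library so labelled was higher than every WT library, yet the gene stayed near 1 FPKM. Slc2a4 was tested only because it averaged 1 FPKM or more in the KO-labelled libraries, where it was higher. The log2 difference was 0.55 (SE 0.13, limma adjusted p = 0.0140) and 1.02 with a pseudocount of 0.1, and after removal of each library's trend with transcript length and GC content it was 0.34 and no longer called (limma adjusted p = 0.0704). Slc2a1 was at 42.6, 43.4 and 46.8 FPKM in WT against 48.4, 48.6 and 55.9 FPKM in the other libraries, a difference of 0.20 on the log2 scale (95% interval -0.0057 to 0.40) that did not pass limma (adjusted p = 0.107). Slc2a3, the high-affinity transporter GLUT3 of neurons, was listed at 0.045, 0.0085 and 0 FPKM in WT against 0, 0 and 0.036 FPKM in the KO-labelled libraries and was not tested.

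The first enzymes differed in how they behaved. Hexokinase traps glucose as glucose 6-phosphate, and neither of its genes was called. The widely expressed Hk1 lay at 47.1, 47.1 and 47.5 FPKM in WT against 40.9, 42.7 and 44.0 FPKM in the KO-labelled libraries, with no overlap and a log2 difference of -0.15 (95% interval -0.31 to 0.01, limma adjusted p = 0.123). It was 0.0058 after removal of the length trend alone, and it passed after quantile normalization (-0.26, limma adjusted p = 0.0206), after scaling to the same sum (-0.26, limma adjusted p = 0.0370) and after removal of the length and GC trend (-0.18, limma adjusted p = 0.0421). The insulin-regulated muscle hexokinase Hk2 was at 12.8 to 15.1 FPKM in WT against 14.1 to 15.7 FPKM in the other libraries (log2 difference 0.05, 95% interval -0.17 to 0.27). Glucose phosphate isomerase Gpi1, which makes fructose 6-phosphate, rose from 128, 147 and 145 FPKM to 189.5, 186 and 207 FPKM, without overlap (log2 difference 0.47, SE 0.088, limma adjusted p = 0.00536), and the difference was 0.30 after quantile normalization, still called (limma adjusted p = 0.0170).

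At phosphofructokinase, the committed step of glycolysis, the muscle subunit rose and the platelet-type subunit fell. Pfkm (chromosome 15, 98092589 to 98132451 of GRCm38) was measured at 73.9, 88.8 and 84.0 FPKM in WT against 120.0, 115 and 133 FPKM in the KO-labelled libraries, all of them higher (log2 difference 0.57, SE 0.098, limma adjusted p = 0.00374). With the length and GC trend removed it was 0.38 and still called (limma adjusted p = 0.00517). Pfkp stood at 29.6, 30.4 and 31.9 FPKM and at 24.7, 22.6 and 27.5 FPKM, all of them lower (log2 difference -0.29, SE 0.091, limma adjusted p = 0.0385). The Pfkp call was lost in 8 of 17 settings, among them removal of the length trend (-0.04, limma adjusted p = 0.855) and leaving out any 1 library other than KO-labelled replicate 3 (limma adjusted p from 0.0606 to 0.109). The liver-type Pfkl overlapped, at 42.4 to 56.6 FPKM in WT and 42.6 to 67.6 FPKM in the other libraries (log2 difference 0.04, 95% interval -0.39 to 0.46). As a share of the summed FPKM of the 3 subunits, Pfkm took 50.02% ± 1.1 in WT and 61.2% ± 2.8 in the KO-labelled libraries (SD, n = 3).

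Fructose 2,6-bisphosphate, the strongest activator of phosphofructokinase, is made and broken down by the 4 bifunctional PFKFB enzymes, whose genes all had lower means in the KO-labelled libraries, 1 of them called. Pfkfb4, the most abundant of them here, fell from 6.57, 6.50 and 6.75 FPKM to 3.65, 4.14 and 4.10 FPKM (log2 difference -0.62, SE 0.095, limma adjusted p = 0.00250). The values within each genotype were close together and the genotypes lay well apart. Pfkfb3, whose enzyme strongly favours synthesis of the activator, was at 1.41 to 1.47 FPKM in WT against 1.07 to 1.23 FPKM in the other libraries, without overlap and without a call (limma adjusted p = 0.22). Pfkfb2 was at 4.93 FPKM in WT replicate 1 and at 2.92 and 3.06 FPKM in the other WT libraries, against 2.72 to 2.90 FPKM, and Pfkfb1 overlapped (0.69 to 1.38 against 0.40 to 0.83 FPKM). Neither passed limma (adjusted p of 0.26 and 0.128). Tigar, a phosphatase that lowers fructose 2,6-bisphosphate, was at 3.52 to 4.05 FPKM in WT against 3.19 to 3.42 FPKM in the other libraries (log2 difference -0.14, limma adjusted p = 0.304), and among the settings run it passed only after removal of the length and GC trend (-0.29, limma adjusted p = 0.0313).

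Aldolase was almost entirely Aldoa, the muscle and general isoenzyme. Aldoa stood at 756, 902 and 959 FPKM in WT against 1041, 948 and 1173 FPKM in the KO-labelled libraries, with 1 WT value above the lowest of the latter (log2 difference 0.27, 95% interval -0.04 to 0.59, limma adjusted p = 0.137). The brain isoenzyme Aldoc was at 1.08 to 1.73 FPKM over all 6 libraries. Triose phosphate isomerase Tpi1 rose from 386, 461 and 496 FPKM to 546, 551 and 685 FPKM (log2 difference 0.41, SE 0.14, limma adjusted p = 0.0463), and phosphoglycerate kinase Pgk1, which makes the first ATP of the pathway, from 309, 366 and 356 FPKM to 450.3, 439.9 and 528 FPKM (0.46, SE 0.11, limma adjusted p = 0.0152). Neither gene had overlapping genotypes. The Tpi1 call was the weakest of the 7 rises and was kept in 7 of 17 settings. It was lost without WT replicate 1 (0.30, limma adjusted p = 0.117), without WT replicate 2 (0.43, 0.107), and without KO-labelled replicate 1 (0.46, 0.0760) or KO-labelled replicate 3 (0.30, 0.122). The Pgk1 call was lost without a filter on low values (limma adjusted p = 0.053) and after quantile normalization (0.16, limma adjusted p = 0.198).

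Gapdh, which joins these steps, held in its own record little of the signal of its sequence. The record (chromosome 6, 125161715 to 125166467 of GRCm38) was measured at 32.7, 40.6 and 87.2 FPKM in WT against 68.9, 52.4 and 31.02 FPKM in the KO-labelled libraries, far under its neighbours Tpi1 and Aldoa in every library and with a wide spread within each genotype (log2 difference -0.02, 95% interval -0.94 to 0.91, limma adjusted p = 0.979). The mouse genome holds many processed pseudogenes of Gapdh. A sequence search found 137 pseudogene records in the table whose best match among protein-coding transcripts was Gapdh (at least 90% identity over at least 200 bases), 32 of them averaging 1 FPKM or more, while the other 29 genes had at most 1 copy at that level except Pgk1, which had 2. The most abundant, Gm13394 on chromosome 2 (28933610 to 28934609), had 1 mismatch in 1000 compared bases of the Gapdh coding sequence, and Gm12671, Gm7336 and Gm10359 had 0 in 1002. Coding bases 316 to 376, counted from the A of the start codon, are shown with the mismatched base in capitals (A346C).

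Gapdh: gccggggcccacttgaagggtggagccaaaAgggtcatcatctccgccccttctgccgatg
Gm13394: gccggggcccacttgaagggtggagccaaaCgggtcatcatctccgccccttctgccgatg

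A read that lies within the coding sequence has the same letters in the gene and in the 3 copies without a mismatch. Gm13394 alone stood at 1328, 1356 and 1379 FPKM in WT against 1923, 2083 and 2010 FPKM in the KO-labelled libraries. The FPKM of the 137 copies summed to 3373, 3644 and 3749.7 in WT and to 4884, 4935 and 5117 in the other libraries, 3589 ± 194 against 4979 ± 122 (SD, n = 3). The genotypes of the summed copies lay apart, with a fold of 1.39 between the means (exact two-sided permutation p = 0.1, the smallest that 3 against 3 allows). Weighted by annotated length, the Gapdh record held only 2.41% to 8.64% of the signal of gene and copies together. With the copies summed into the gene, the length-weighted level was 861, 936 and 1009 FPKM in WT and 1268, 1265 and 1288 FPKM in the KO-labelled libraries. The log2 difference of that sum was 0.45 and passed limma (adjusted p = 0.0127). Gm12671 and Gm10359 averaged 265 and 246 FPKM, although a read within either of them also matches Gapdh. How reads with several matches were treated is unknown here. If they were counted at each match, the sums hold the same read more than once. Whether any copy is itself transcribed cannot be told from the table.

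**Figure D2:**
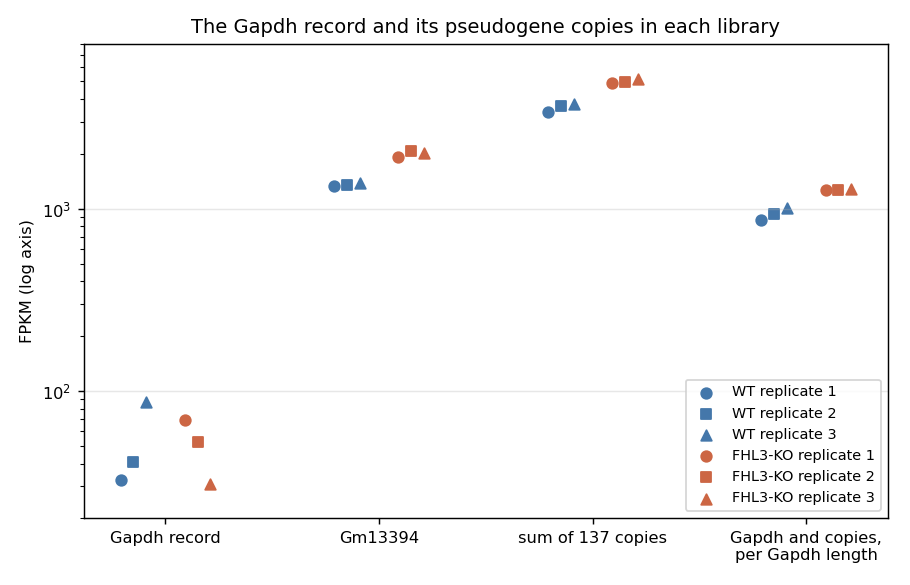
FPKM on a log axis of the Gapdh record, of the copy Gm13394, of the sum of 137 copies, and of gene and copies together per Gapdh length, with 1 point per library (WT blue, KO-labelled orange). The record scatters from 31.02 to 87.2 FPKM with the genotypes mixed, while for the other 3 quantities every KO-labelled library lies above every WT library.

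Among the 3 enolases, Eno3 rose and the other two were not called. Eno3, the muscle enolase (chromosome 11, 70657202 to 70662513 of GRCm38), was measured at 369, 439 and 470.3 FPKM in WT against 914, 769 and 926 FPKM in the KO-labelled libraries. No WT library came near the lowest of these, and the rise was the largest among the 29 tested genes on the log2(FPKM + 1) scale (1.03, SE 0.13, limma adjusted p = 0.00106). The ubiquitous Eno1 stayed close to its WT level, at 539, 573 and 575 FPKM against 519, 549.8 and 563 FPKM (log2 difference -0.05, 95% interval -0.25 to 0.15), and was called lower only after quantile normalization (-0.34, limma adjusted p = 0.0300). In WT Eno1 exceeded Eno3 in every library, and in the KO-labelled libraries Eno3 exceeded Eno1 in every library. The neuronal enolase Eno2 was at 4.29 to 5.57 FPKM in WT against 7.17, 5.44 and 8.69 FPKM in the other libraries and missed the threshold (log2 difference 0.46, limma adjusted p = 0.0602). It passed without KO-labelled replicate 2 (0.61, limma adjusted p = 0.0134) and after quantile normalization (0.58, limma adjusted p = 0.0407). Summed over the 3 enolases, the level was 994 ± 72 FPKM in WT and 1421 ± 88 FPKM in the KO-labelled libraries.

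Phosphoglycerate mutase, the step before enolase, showed no such difference. The muscle gene Pgam2 was at 58.2, 74.5 and 69.1 FPKM in WT against 70.6, 62.6 and 87.4 FPKM in the KO-labelled libraries (log2 difference 0.12, 95% interval -0.21 to 0.45), and the general gene Pgam1 at 182, 210.3 and 220.3 FPKM and at 212, 233 and 239.99 FPKM (0.16, 95% interval -0.07 to 0.40). The genotypes overlapped for both. Pyruvate kinase Pkm, which makes the last ATP of the pathway, was at 659, 738 and 793 FPKM in WT against 757, 743 and 889 FPKM in the other libraries (0.12, 95% interval -0.15 to 0.40, limma adjusted p = 0.425). The table has 1 value per gene, so the M1 and M2 splice forms of Pkm cannot be told apart.

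At the lactate end Ldha rose while Ldhb and the monocarboxylate transporter gene Slc16a1 fell. Slc16a3, the other transporter gene, was low throughout and was also called lower. Lactate dehydrogenase is a tetramer of A subunits, encoded by Ldha and prevalent in fast muscle, and B subunits, encoded by Ldhb and prevalent in heart. Ldha stood at 408, 502 and 545 FPKM in WT against 719, 656 and 813 FPKM in the KO-labelled libraries (log2 difference 0.59, SE 0.14, limma adjusted p = 0.0127). Ldhb (chromosome 6, 142490249 to 142507957 of GRCm38) was measured at 12.4, 12.5 and 12.6 FPKM in WT against 3.99, 2.68 and 4.13 FPKM in the other libraries, the largest difference of the 29 genes (-1.57, SE 0.14, limma adjusted p = 0.000277). Neither gene overlapped between the genotypes, and the 3 WT values of Ldhb were nearly equal. The Ldha call was lost without a filter on low values (limma adjusted p = 0.0555), and after quantile normalization the Ldha difference was 0.30 and called (limma adjusted p = 0.0233). The Ldhb share of the summed FPKM of both genes was 2.55% ± 0.36 in WT against 0.488% ± 0.074 (SD, n = 3).

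Slc16a1 encodes MCT1, which carries lactate in either direction, and Slc16a3 encodes MCT4, the export transporter of fast glycolytic fibres. Slc16a1 fell from 30.99, 33.9 and 31.8 FPKM to 20.9, 21.6 and 18.3 FPKM (log2 difference -0.65, SE 0.090, limma adjusted p = 0.00166). With the length and GC trend removed the difference was -0.37 and still called (limma adjusted p = 0.00890). Slc16a3 was low throughout, at 0.82, 1.399 and 1.01 FPKM in WT against 0.43, 0.17 and 0.40 FPKM in the KO-labelled libraries (log2 difference -0.64, SE 0.16, limma adjusted p = 0.0159; -1.48 with a pseudocount of 0.1). All libraries so labelled were below all WT libraries for both genes. Slc16a3 was tested only because it averaged 1 FPKM or more in WT, where it was higher. The Slc16a3 call was lost after quantile normalization (-0.40, limma adjusted p = 0.0874), and the gene did not pass the filter without WT replicate 2. Basigin (Bsg), the membrane partner that MCT1 and MCT4 need to reach the cell surface, was at 491, 592 and 645 FPKM in WT against 548, 497 and 648 FPKM in the other libraries (log2 difference -0.03, 95% interval -0.36 to 0.30).

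**Figure D3:**
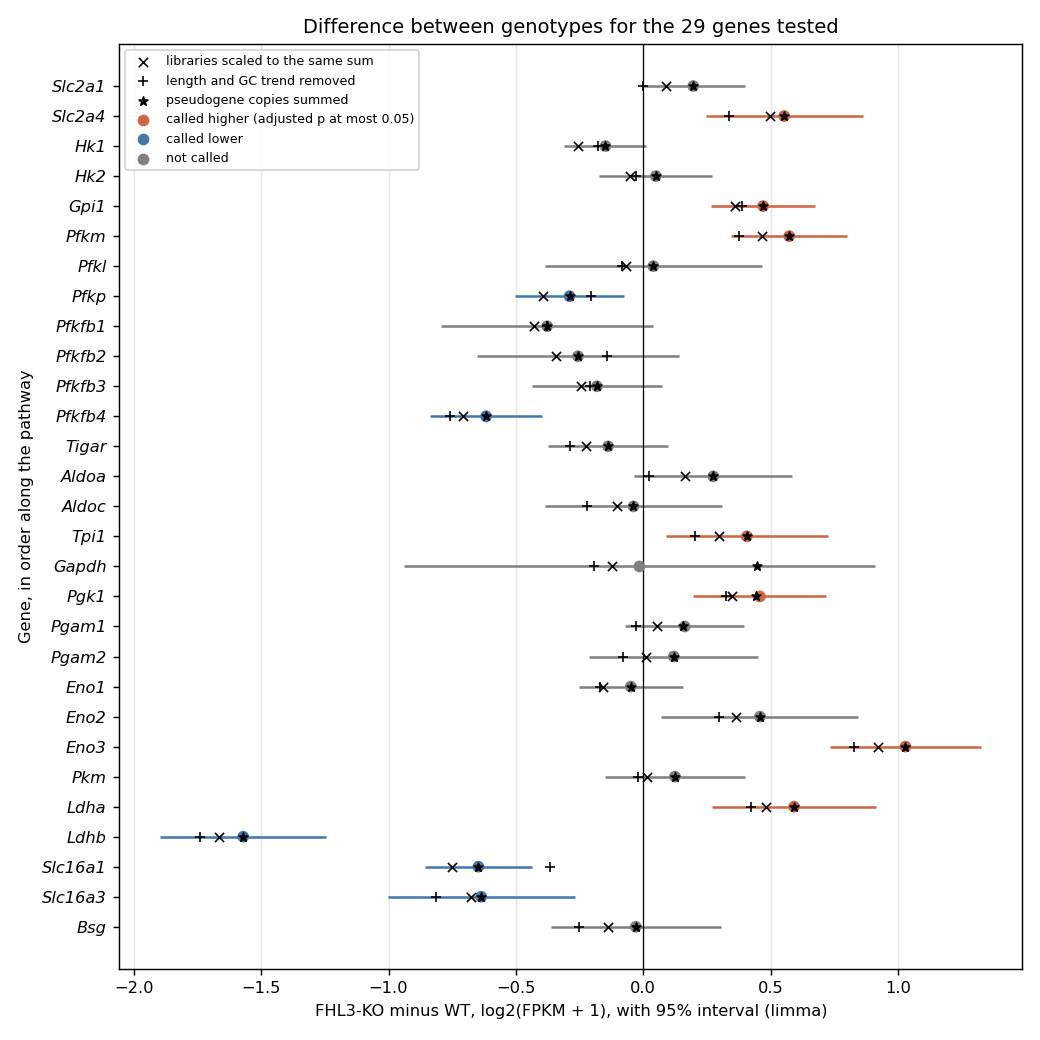
Difference between the genotypes (KO-labelled minus WT) on the log2(FPKM + 1) scale for the 29 tested genes, with 95% intervals from limma, coloured by call, and black symbols for 3 other ways of processing. Ldhb lies farthest left at -1.57 and Eno3 farthest right at 1.03, and for Gapdh the sum with its pseudogene copies (star) lies at 0.45, away from the record at -0.02.

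Shares of isoenzymes within a step are not changed when a whole library is multiplied by a factor. Over 9 steps, the share of the isoenzyme named first in each comparison did not overlap between the genotypes for 7. Single genes did not overlap for 26.9% of all tested genes in each direction, and the rate for shares among other genes was not computed. Each of these 7 had an exact two-sided permutation p of 0.1, the smallest possible for 3 against 3 libraries, and 0.129 after adjustment over the 9 steps. The largest difference was at enolase, where Eno3 took 40.4%, 43.2% and 44.7% of the summed FPKM in WT and 63.5%, 58.1% and 61.8% in the KO-labelled libraries, a difference of the means of 18.3 percentage points. The Pfkm share was next, with 11.2 points. Hk2 took 23.1% ± 1.7 of hexokinase FPKM in WT and 25.7% ± 0.73 in the other libraries (SD, n = 3), and Ldha took 97.5% ± 0.36 and 99.5% ± 0.074 of lactate dehydrogenase. Slc2a4 took 1.47% ± 0.35 and 2.73% ± 0.26 of the summed FPKM of Slc2a1, Slc2a3 and Slc2a4. That sum leaves out other family members such as Slc2a6 (means of 18.2 FPKM in WT and 15.5 FPKM in the KO-labelled libraries) and Slc2a8 (6.51 and 7.22 FPKM).

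Slc16a3, the muscle-type lactate exporter, took a smaller share of the monocarboxylate transporters in the KO-labelled libraries, 1.63% ± 0.74 against 3.20% ± 0.71. Pfkfb3 took 13.5% ± 1.5 of the PFKFB genes against 11.3% ± 0.94, at a summed level of 8.55 ± 0.34 FPKM against 12.8 ± 1.4 FPKM. The Pgam2 share overlapped, at 24.8% ± 1.2 in WT and 24.3% ± 2.8 in the other libraries (exact permutation p = 0.9), as did the Aldoa share of 99.8% and 99.9% (exact permutation p = 0.2). Over the 9 steps, every KO-labelled library was above every WT library for the shares of Slc2a4, Hk2, Pfkm, Pfkfb3, Eno3 and Ldha, the genotypes overlapped for Aldoa and Pgam2, and every KO-labelled library was below for Slc16a3. Slc16a3 and Slc2a4 lie near 1 FPKM, and each passed the filter only through the genotype in which it was higher.

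**Figure D4:**
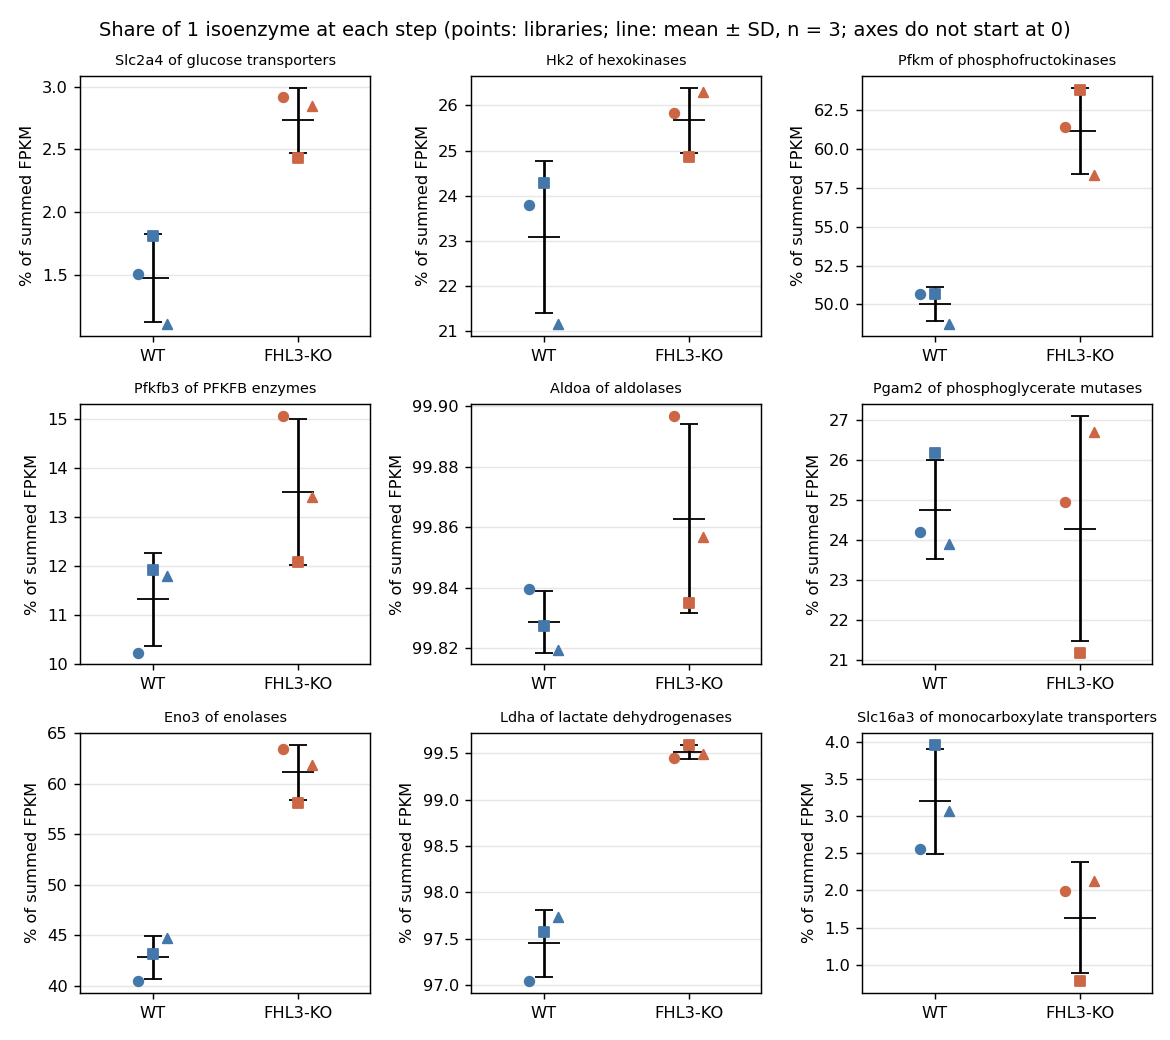
Share of 1 isoenzyme in the summed FPKM of its step, in percent, for 9 steps, with 1 point per library (WT blue, KO-labelled orange) and the mean ± SD of 3 libraries in black; the vertical axes differ between panels and do not start at 0. The genotypes are apart in 7 panels, widest for Eno3 at 42.8% against 61.1%, and overlap for Aldoa and Pgam2.

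The abundant genes shared an order of the libraries within each genotype. For all 11 genes that averaged 100 FPKM or more (a level chosen after the values were seen), WT replicate 1 was the lowest of WT and KO-labelled replicate 3 the highest of its genotype. Over the 29 tested genes this held for 21 (72.4%) and 22 (75.9%), against 34% and 31% of all tested genes. The share among all genes that averaged 100 FPKM or more was not computed, so the order is not shown to be particular to this pathway. These are also the libraries with the lowest and the highest FPKM sum. Scaled to the same sum, Eno3 (0.92), Ldha (0.48), Pfkm (0.47), Gpi1 (0.36), Pgk1 (0.35) and Slc2a4 (0.50) stayed called and Tpi1 did not (0.30, limma adjusted p = 0.0642). With that scaling, 36.3% of all calls in the table were rises, against 48.2% without it, and 6 genes of the pathway rose and 6 fell.

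Promoter sequences were taken from RefSeq (GRCm38.p6), which matched 27 of the 30 genes with 44 start sites, as 300 bases around each start. The core of the hypoxia response element, ACGTG on either strand, is found in promoters of many glycolytic genes and was present in 19 of the 44 (43.2%), against 19.6% of all 32851 promoters in the table. Some of the 44 stretches overlap, as for Aldoa, so the same site can be counted more than once. Counted by gene, the core was present for 15 of the 27 matched genes. It occurred for 3 of the 6 matched genes that rose (Ldha, Pfkm and Pgk1) and for 2 of the 5 that fell (Slc16a1 and Slc16a3). CCATNTT, a core of the motif of YY1, the factor named in the title of the series, was present in 6 of 44 (13.6%) against 16.1% of all promoters, in Pfkm among the genes that rose and in Ldhb among those that fell. The E-box CANNTG, the motif of myogenic factors, was present for all 6 matched genes that rose and for 1 of 5 that fell. Among all 27 matched genes it was present for 19. Counted by start site it was in 70.5% of the 44 promoters against 72.3% of all. A gene was counted if any of its starts had a match, so genes with several starts, such as Pfkm and Ldha, had more chances. The GC box GGGCGG was in 52.3% against 35.7%, and the MEF2 motif in 0 of 44 against 0.6%. All motifs were searched on both strands, and CACGTG holds the hypoxia response core and is also an E-box. A match describes letters and shows no binding.

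The promoters of the genes with the largest rise and fall, and of the pair at the lactate end that moved apart, are printed 5′ to 3′ on the gene's strand with each ACGTG or its complement CACGT in capitals. Eno3 is chr11:70656926-70657225 (+), Ldha its upstream start at chr7:46845554-46845853 (+), Ldhb chr6:142507908-142508207 (-) and Slc16a1 chr3:104638414-104638713 (+).

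Eno3: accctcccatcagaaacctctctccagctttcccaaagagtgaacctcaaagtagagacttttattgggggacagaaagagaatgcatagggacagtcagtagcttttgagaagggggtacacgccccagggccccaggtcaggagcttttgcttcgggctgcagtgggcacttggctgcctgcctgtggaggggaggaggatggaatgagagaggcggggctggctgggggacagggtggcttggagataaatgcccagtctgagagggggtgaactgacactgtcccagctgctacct
Ldha: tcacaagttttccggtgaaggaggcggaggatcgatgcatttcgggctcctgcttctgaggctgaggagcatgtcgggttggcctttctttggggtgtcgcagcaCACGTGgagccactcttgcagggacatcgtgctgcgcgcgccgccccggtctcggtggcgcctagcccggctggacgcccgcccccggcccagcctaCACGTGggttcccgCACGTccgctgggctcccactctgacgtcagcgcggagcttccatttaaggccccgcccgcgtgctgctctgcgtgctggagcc
Ldhb: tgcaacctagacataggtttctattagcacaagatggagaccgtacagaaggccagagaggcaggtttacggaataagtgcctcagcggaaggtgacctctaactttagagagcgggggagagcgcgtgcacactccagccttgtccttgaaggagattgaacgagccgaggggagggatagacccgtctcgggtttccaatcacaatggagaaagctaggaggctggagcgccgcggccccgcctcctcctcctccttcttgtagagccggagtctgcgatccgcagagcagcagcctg
Slc16a1: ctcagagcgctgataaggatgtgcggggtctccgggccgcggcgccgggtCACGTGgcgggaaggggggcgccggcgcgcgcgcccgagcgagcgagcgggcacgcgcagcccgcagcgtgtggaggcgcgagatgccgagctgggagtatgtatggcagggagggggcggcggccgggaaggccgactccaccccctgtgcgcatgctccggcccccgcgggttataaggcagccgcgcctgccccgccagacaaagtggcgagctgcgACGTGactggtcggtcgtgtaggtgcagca

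The printed promoters of Ldha and Slc16a1, which moved in opposite directions, both hold the hypoxia response core, and those of Eno3 and Ldhb, the largest rise and fall, do not. The second Ldha start in RefSeq, chr7:46846832-46847131, has 0 matches.

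Genes around the pathway were counted in 5 lists. The lists were chosen with earlier results of these data known, so the counts only describe the listed genes. In the pyruvate carrier and the shuttles that carry cytosolic NADH into mitochondria, 6 of 12 rose and 0 fell, against 19.7% and 21.2% of all tested genes, with a median log2 difference of 0.33 beside -0.0051 for all tested genes. Mpc1, a subunit of the mitochondrial pyruvate carrier, rose from 30.5 ± 0.78 to 43.7 ± 5.7 FPKM (SD, n = 3), and Mdh1 and Got2 of the malate-aspartate shuttle from 110.0 ± 3.5 to 137 ± 3.2 and from 48.4 ± 3.0 to 61.8 ± 2.5 FPKM, adjusted p by limma being 0.0077, 0.0111 and 0.0114. Without WT replicate 1, 5 of the 12 rose, the call of Gpd1l (named after its values were seen) being lost (0.34, limma adjusted p = 0.05997). Among gluconeogenic bypass enzymes 3 of 4 tested genes rose, against the same 19.7%, also without WT replicate 1: pyruvate carboxylase Pcx from 3.08 ± 0.12 to 6.87 ± 0.67 FPKM, mitochondrial Pck2 from 9.43 ± 0.94 to 19.6 ± 3.6 FPKM and G6pc3 from 20.4 ± 2.3 to 30.9 ± 2.9 FPKM (adjusted p by limma of 0.000672, 0.00191 and 0.0055). The other 4 genes of that list, Fbp1, Fbp2, Pck1 and G6pc, were below the filter, and Pck1 was listed at 2.38 FPKM in WT replicate 1 and at 0 elsewhere.

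In the pentose phosphate and GLUT4 lists the calls in both directions lay not far from the shares of all tested genes, 19.7% higher and 21.2% lower. In the pentose phosphate pathway 2 of 7 rose and 2 fell: Pgls rose from 77.6 ± 2.1 to 126 ± 7.7 FPKM and transketolase Tkt from 8.26 ± 0.83 to 13.2 ± 1.3 FPKM, while the epimerase Rpe fell from 11.2 ± 1.0 to 6.28 ± 0.45 FPKM (adjusted p by limma of 0.000685, 0.00451 and 0.00156). In GLUT4 trafficking and insulin signalling 5 of 20 rose and 6 fell, with a median of 0.07. Without WT replicate 1, 4 fell, the calls of Rab10 (-0.32, limma adjusted p = 0.101) and Stxbp3 (-0.45, limma adjusted p = 0.0518), both named after their values were seen, being lost. Txnip, which restrains glucose uptake, fell from 56.7 ± 3.8 to 37.9 ± 2.6 FPKM, the vesicle SNARE Vamp2 rose from 19.0 ± 0.80 to 27.6 ± 1.9 FPKM and the vesicle GTPase Rab8a from 8.56 ± 0.54 to 12.4 ± 0.56 FPKM (adjusted p by limma of 0.00246, 0.00298 and 0.00478). Of 22 relatives of the transporters and enzymes only 5 were tested, and 1 of these fell: embigin (Emb), a partner of monocarboxylate transporters, from 2.98 ± 0.13 to 2.10 ± 0.18 FPKM (limma adjusted p = 0.0300), a call lost without WT replicate 1 (-0.35, limma adjusted p = 0.0707). Bpgm (11.7 and 13.9 FPKM) and Slc2a6 (18.2 and 15.5 FPKM) did not pass limma (adjusted p of 0.105 and 0.139). Hk3, Pgk2, Pklr and Ldhc were listed at 0 in all 6 libraries.

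**Figure D5:**
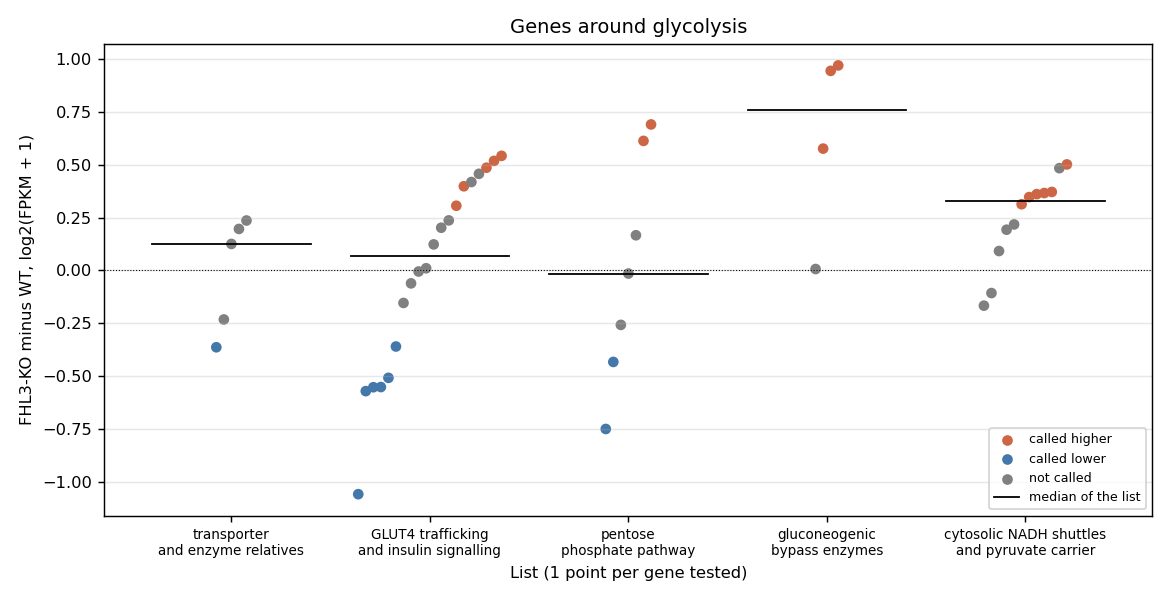
Difference between the genotypes (KO-labelled minus WT, log2(FPKM + 1)) for each tested gene of 5 lists around glycolysis, sorted within a list and coloured by call, with a line at each list's median. The shuttle list has 6 rises and 0 falls and the gluconeogenic list 3 rises among 4 genes, while the pentose phosphate and GLUT4 lists have calls on both sides of 0.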

How the data were processed

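RNA-seq libraries of C2C12 cells on day 4 of differentiation were compared, 3 WT and 3 labelled FHL3-KO, grouped by their titles. The build mm10, featureCounts 2.0.1, HISAT2 2.2.1, DESeq2 1.28.1 and Trim Galore 0.6.6 are named, without roles, per the submitters' processing notes. The annotation, the strand setting and the handling of multiply matching reads were unknown here. The authors' deposited table holds 1 decimal value per gene and library, read as FPKM from the values; counting depth is unknown, so no counting interval is given. Below 0.05 FPKM, ratios between libraries agreed to 3 decimals on the log2 scale for only 1.04% to 1.64% of genes, so whole reads were not recovered. The commonest of these ratios would put depth at 0.927 to 1.08 times that of WT replicate 1, but too few genes shared it for an estimate of depth.

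Of 55420 rows, 7 with repeated gene IDs were left out. A symbol with several records used the one with the highest mean. Genes averaging 1 FPKM or more in some genotype were kept. On log2(FPKM + 1), which understates changes of low genes, limma 3.58.1 (R 4.3.3) was run (mean-variance trend, two-sided, no covariates), with Benjamini-Hochberg adjustment over all tested genes at 0.05. Isoenzyme shares were compared by exact permutation (scipy 1.17.1). The limma step was tested on simulated data. Coordinates, length and GC content came from GENCODE M21 (GRCm38, the build mm10 names), which holds 94.1% of the gene IDs. Pseudogene copies were found with blastn 2.17.0. The members and lists were chosen with earlier results of these data known. The rule for named genes took the 30 genes, Fhl3, per list the 3 smallest p values, and markers where a list differed between the genotypes or 1 library stood apart; any other gene was named with its values known. The settings varied were the pseudocount (0.1), no filter, a filter at 5 FPKM, quantile, sum and median-of-ratios scaling, a replicate block, removal of length or length and GC trends (splines with 5 degrees of freedom), a threshold of 0.01 and leaving out each library. Summing pseudogene copies, and refitting the lists without WT replicate 1, were chosen after seeing the data.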

Additional observations from a re-analysis of the deposited data

How the results depend on the processing

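Among the 12 called genes, Gpi1, Pfkm, Pfkfb4, Eno3, Ldhb and Slc16a1 kept their call in all 17 settings at an adjusted p of 0.05, the main one included. The number of genes that rose was 7 and became 4 without a filter on low values, where 27681 genes were tested, and 3 at a threshold of 0.01; over the fits without 1 library it ran from 6 to 8. The number that fell was 5 and became 3 at a threshold of 0.01; without 1 library it ran from 3 (without WT replicate 2, when Slc16a3 was not tested) to 5. Rises and falls numbered 6 and 7 after quantile normalization, 6 and 6 after scaling to the same sum, and 5 and 6 after removal of the length and GC trend, so that falls were as many as rises or more. Of the 17 genes not called, Hk1, Tigar, Gapdh, Eno1, Eno2 and Bsg were called in at least 1 setting, Bsg after quantile normalization (-0.29, limma adjusted p = 0.0454). Gapdh turned from -0.02 to 0.45 with its pseudogene copies summed. The share of Pgam2, -0.48 percentage points, ran from -1.69 to 1.07 without 1 library and turned positive when WT replicate 2 (0.23) or KO-labelled replicate 2 (1.07) was left out. The other 8 shares kept their direction in these fits and as log2 ratios. Shares were not recomputed with the length or GC trend removed or after quantile normalization, so their dependence on these settings is not known.

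Deviations from the group means correlated at -0.13, -0.06 and 0.32 between WT and KO-labelled libraries of the same number, 1 to 3. Between libraries of different numbers the correlations ran from -0.38 to 0.37. With 3 libraries per genotype these values cannot decide whether the replicate numbers pair the libraries. With the replicate block 8 genes rose and 5 fell, Eno2 being added. Whole-table calls were 2265 rises and 2494 falls with the block, against 2462 and 2650. Without WT replicate 2 they were 1605 and 1667. Read depth is unknown, so what counting error adds to low genes such as Slc2a4, Slc16a3 and Pfkfb1 is not known.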
